A study of Mus musculus with 35 samples.

Results

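The late step of the conversion of ES cells into primitive endoderm (PrE) was followed in the 3 libraries collected after 96 h of doxycycline (Dox) and the 3 collected after 168 h. These are 6 of the 35 libraries of the series, and 13130 of the 44853 genes in the table had a mean of at least 1 TPM (transcript counts scaled for length to a fixed total) in one group or the other and were tested. Both groups were KH2 mouse ES cells of a C57BL/6 and 129/Sv cross, carrying a Dox-inducible GATA6 transgene, and both had been given 1 µg/mL Dox since 0 h. Both were kept with LIF on mitomycin-C-inactivated mouse embryonic fibroblasts, which were depleted by adsorption to plastic before lysis. The labels do not say which of the clones derived for this line was used. The transgene stays on for as long as Dox is given. Libraries of the same cells at 0 h, 16 h, 24 h, 48 h and 72 h (n = 3 each) and of wild-type XEN cells, an extra-embryonic endoderm line from CD1 embryos grown without LIF and without Dox (n = 2), served as points of reference. XEN and KH2 cells differ in line, strain and LIF, which cannot be told apart from one another.

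The PrE of the blastocyst gives rise to visceral endoderm, which covers the embryo and secretes plasma proteins, and to parietal endoderm. Parietal endoderm cells migrate singly along the inner wall of the blastocyst cavity and lay down Reichert's membrane, a thick basement membrane made of type IV collagen, laminin, nidogen and SPARC. Collagen chains are hydroxylated and folded inside the endoplasmic reticulum before they are secreted. XEN cells in culture resemble parietal endoderm more than visceral endoderm.

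Replicates of the same time correlated across genes at 0.985 to 0.992 at 96 h and at 0.979 to 0.987 at 168 h (Pearson, log2(TPM + 1)). At every time from 0 h to 168 h, replicates 1 and 2 correlated best with each other. At 72 h they correlated at 0.99, against 0.965 and 0.967 with replicate 3, and at 96 h at 0.9917, against 0.9853 and 0.9854. Replicate 3 of 168 h stood apart from replicates 1 and 2 in several genes, and replicate 3 of 96 h did so in some. The labels do not say why, and the 3 libraries of a time may not be equally independent. Gata6 itself was at 239.8, 244 and 232 TPM at 96 h and 369.6, 317 and 346 TPM at 168 h, so all 6 libraries carried the message. These values, which are 1 per gene, do not separate transgene from endogenous transcripts. A gene was called higher or lower where limma's adjusted p was under 0.05 and the difference between group means of log2(TPM + 1) was past 1, which is past 2-fold for well-expressed genes and more than that for genes near 1 TPM. Differences are given on that scale with the standard error (SE) of the fit. The depth behind each TPM value is unknown. The libraries are bulk RNA, so a shift in the share of cells of a type cannot be told apart from a shift in the RNA per cell. Replicates were described as independent, with nothing on whether they were separate cultures or days.

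Between 96 h and 168 h, 789 genes were called higher (6.01% of those tested) and 370 lower (2.82%). These shares are the background for every count of called list members given below. The called rises had a median of 1.32 and the called falls a median of -1.31 on the log2 scale, and 113 genes rose and 46 fell by more than 2. Of all genes tested, 4804 (36.6%) lay higher in every 168 h library than in any 96 h library and 2881 (21.9%) lay lower, and 773 of the called rises and 363 of the called falls did so. Higher genes made up 68.1% of the called genes as deposited and 56.9% after median-of-ratios rescaling, which moved the median over all genes from 0.12 to 0.02. TPM values are shares of one total, so a gain or loss of the most abundant messages moves the shares of all others.

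Basement membrane genes carried the largest gains. The 21 genes of the list summed to 15624, 16064 and 16335 TPM at 96 h and to 38476, 37698 and 38876 TPM at 168 h, and to 20151 and 19891 TPM in XEN cells. The sum was therefore about 2.396 times as large at 168 h, when it stood above both XEN libraries. Of the 18 members tested, 7 rose and 0 fell, and the median difference was 0.63, against 0.12 over all genes. Without 96 h replicate 3, 1 member fell. Without the fold minimum and the adjustment, 10 were higher and 2 lower at an unadjusted p under 0.05.

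Col4a1, which encodes a chain of type IV collagen (chromosome 8, 11198423 to 11312826 in mm10), stood at 2462, 2669.9 and 2663 TPM at 96 h and 7905, 7559 and 7654 TPM at 168 h. The groups lay far apart, with a difference of 1.57 ± 0.13 (SE; limma adjusted p = 3.78e-08). Its head-to-head neighbour Col4a2, the partner chain in the same collagen trimer, went from 1313, 1380.2 and 1395 TPM to 3898, 3862 and 3789 TPM, a difference of 1.498 ± 0.17 (SE; limma adjusted p = 1.39e-06). XEN cells held far less of either message, with means of 1143 TPM of Col4a1 and 517 TPM of Col4a2, so both ended above the reference line. The 2 genes share a start region, and their RefSeq promoter windows (GRCm38.p6, from 250 bases before the start site to 50 after it) overlap by 78 bases. The Col4a1 window is shown because the 2 chains moved together. Capitals mark CCAAT on either strand. This motif was found in 41.1% of the 27025 genes with a window, expressed here or not, and in 8 of 15 genes (53.3%) of the parietal list.
Col4a1 (chr8:11312777-11313076, minus strand): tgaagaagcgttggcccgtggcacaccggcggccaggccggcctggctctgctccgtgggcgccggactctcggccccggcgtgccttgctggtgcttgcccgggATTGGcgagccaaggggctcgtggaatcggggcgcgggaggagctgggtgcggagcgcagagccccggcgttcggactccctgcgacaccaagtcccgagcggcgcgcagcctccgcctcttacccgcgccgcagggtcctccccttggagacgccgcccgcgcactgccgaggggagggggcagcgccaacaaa

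Sparc, which encodes a collagen-binding glycoprotein of basement membranes, was the most abundant of the group and went from 4517, 4634 and 4887 TPM to 11826, 11706 and 12469.7 TPM. Its gain of 7321 TPM was the largest of any gene that met the naming rule, and the difference was 1.36 ± 0.23 (SE; limma adjusted p = 8.38e-05). The laminin chains formed a close group. Lamb1 stood at 1753, 1724 and 1730.2 TPM at 96 h and 4126, 4146 and 4213 TPM at 168 h, a difference of 1.26 ± 0.13 (SE; limma adjusted p = 3.68e-07), and Lama1 at 1972, 2000.5 and 2014 TPM at 96 h and 4106, 3983 and 4030.3 TPM at 168 h, a difference of 1.02 ± 0.13 (SE; limma adjusted p = 4.88e-06). The Lama1 call was lost after median-of-ratios rescaling (0.91). Lamc1, the third chain of laminin-111, went from 2155, 2176 and 2106 TPM to 4349, 4042 and 4450.1 TPM, and its 0.99 ± 0.11 (limma adjusted p = 1.08e-06) fell just short of the fold minimum. The 3 chains were thus of like abundance at both times. Nid1, a nidogen that links laminin to collagen IV, showed the largest relative rise of the list, from 146, 148 and 145 TPM to 658, 605 and 653 TPM (2.12 ± 0.13, limma adjusted p = 7.58e-10). Nid2, the second nidogen, rose by 1.27 ± 0.12 (SE; limma adjusted p = 1.79e-07).

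Other basement membrane members were not called. Hspg2, which encodes perlecan, was at 724, 753 and 828 TPM at 96 h and 627, 693 and 796 TPM at 168 h, a difference of -0.13 ± 0.101 (limma adjusted p = 0.302). For Agrn the difference was -0.27 ± 0.15 (limma adjusted p = 0.135), for Lama5, a laminin chain of other epithelia, -0.51 ± 0.17 (limma adjusted p = 0.0164), and for Fn1, fibronectin, 0.38 ± 0.19 (limma adjusted p = 0.103). The rise was therefore carried by laminin-111, collagen IV, nidogens and SPARC among the genes listed.

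**Figure D1:**
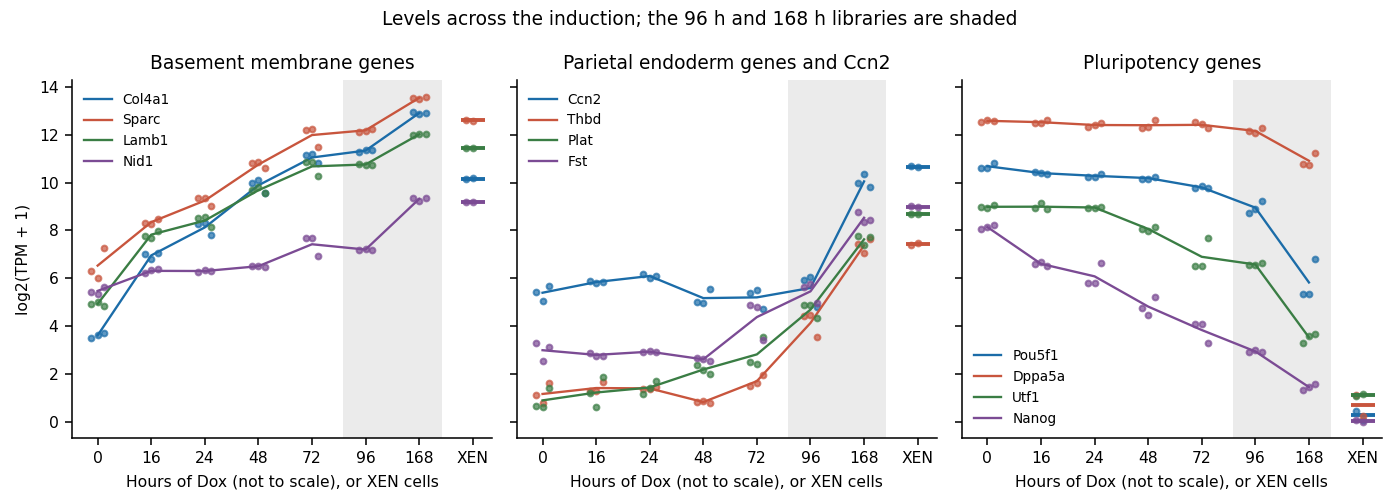
Levels on log2(TPM + 1) of 4 basement membrane genes, of 3 parietal endoderm genes with Ccn2, and of 4 pluripotency genes against hours of Dox (not to scale), with XEN cells at the right; points are libraries, lines join means and the short bars are XEN means. Between 96 h and 168 h (shaded) Ccn2 went from a mean of 50.6 to 1076 TPM and Col4a1 from 2598 to 7706 TPM, while Pou5f1 went from 500.1 to 63.4 TPM.

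Of the 20 collagen-modifying enzymes and chaperones tested, 6 rose and 0 fell, with a median difference of 0.66. Loxl2, a lysyl oxidase that crosslinks collagen IV, led the list. It went from 83.4, 90.5 and 68.05 TPM to 626, 625 and 578 TPM, a difference of 2.91 ± 0.44 (SE; limma adjusted p = 3.45e-05). Plod2, a lysyl hydroxylase, stood at 656, 689.9 and 590.1 TPM at 96 h and 1948, 1849 and 1904 TPM at 168 h (1.56 ± 0.199, limma adjusted p = 4.56e-06), and P4ha1, the catalytic chain of a prolyl hydroxylase, at 329.6, 346 and 311 TPM at 96 h and 1068, 1049 and 975 TPM at 168 h (1.65 ± 0.17, limma adjusted p = 3.5e-07). Both were among the 10 largest gains of mean TPM. Pxdn, peroxidasin, which forms sulfilimine bonds in collagen IV, rose by 1.56 ± 0.13 (SE; limma adjusted p = 3.94e-08) and P3h2, a prolyl 3-hydroxylase, by 1.15 ± 0.19 (SE; limma adjusted p = 6.06e-05). Lox rose by 1.27 ± 0.27 (SE; limma adjusted p = 0.000812), a call lost without 96 h replicate 3 (0.87). Serpinh1, the collagen chaperone HSP47, was already at 3013, 3204 and 3113 TPM at 96 h and reached 5150.2, 4599 and 4858 TPM, a difference of 0.65 ± 0.12 (limma adjusted p = 0.000221) under the fold minimum. Of 20 general folding and stress genes of the endoplasmic reticulum, Ddit3, a stress-induced transcription factor, alone was called, with a rise of 1.37 ± 0.26 (SE; limma adjusted p = 0.000244), and the chaperone Hspa5 differed by -0.07 ± 0.14 (limma adjusted p = 0.721).

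Of the 21 parietal endoderm genes, 14 rose and 0 fell, with a median of 1.36, and each of the 21 was higher in every 168 h library than in any 96 h library, against 36.6% of all genes. The list shares 7 genes with the basement membrane list. Thbd, which encodes thrombomodulin, a surface anticoagulant of parietal endoderm, showed its largest rise. It was at 20.1, 20.9 and 10.6 TPM at 96 h and 173, 131 and 198 TPM at 168 h, a difference of 3.24 ± 0.22 (SE; limma adjusted p = 2.71e-09), and reached the XEN values of 167 and 175 TPM. Fst, follistatin, which binds activins, went from 48.3, 52.8 and 30.5 TPM to 439, 329 and 348 TPM (3.08 ± 0.29, limma adjusted p = 9.62e-08). Plat, the tissue plasminogen activator that parietal endoderm secretes, went from 28.03, 28.1 and 19.2 TPM to 215, 168 and 211 TPM (2.94 ± 0.304, limma adjusted p = 3.71e-07), which was still under the XEN values of 416 and 414 TPM. These genes had means of 2.25, 21.9 and 6.51 TPM at 72 h, so most of their level was gained after 96 h.

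Snai1, a repressor of epithelial genes, rose by 1.86 ± 0.17 (SE; limma adjusted p = 1e-07), Stra6, a retinol transporter, by 1.63 ± 0.23 (SE; limma adjusted p = 1.19e-05), and Tfpi, an inhibitor of coagulation, by 1.24 ± 0.11 (SE; limma adjusted p = 3.22e-08). Vim, vimentin, the intermediate filament of migratory cells, was at 131, 137 and 31.6 TPM at 96 h and 253, 261 and 172 TPM at 168 h. Replicate 3 of 96 h was low and set part of the difference of 1.42 ± 0.54 (SE; limma adjusted p = 0.0389). The Vim call was lost after median-of-ratios rescaling (1.31, adjusted p = 0.0511), with no filter on low values (1.42, adjusted p = 0.0774), with only the 96 h and 168 h libraries (1.42, adjusted p = 0.0959), without 168 h replicate 1 (1.34, adjusted p = 0.091), without 168 h replicate 2 (1.31, adjusted p = 0.101) or without 96 h replicate 3 (0.74). The 7 members not called pointed up by less than the fold minimum, among them Pth1r, the receptor for parathyroid hormone related peptide (0.93 ± 0.22, limma adjusted p = 0.00227), Pdgfra (0.54 ± 0.15, limma adjusted p = 0.00545), Krt8 (0.55 ± 0.10, limma adjusted p = 0.000204) and Srgn, a proteoglycan core protein (0.305 ± 0.31, limma adjusted p = 0.437).

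Cck, which encodes cholecystokinin, had the largest difference of any named gene, 4.74 ± 0.52 (SE; limma adjusted p = 7.65e-07). It stood at 0.609, 1.41 and 2.57 TPM at 96 h and 28.7, 55.8 and 155 TPM at 168 h, so the groups did not overlap but the 168 h libraries ranged widely, and XEN cells held 1.597 and 1.85 TPM. Ccn2, a matricellular protein and a common target of YAP, stood at 59.1, 65.8 and 26.98 TPM at 96 h and 1015, 1321 and 892 TPM at 168 h (4.46 ± 0.26, limma adjusted p = 4.52e-10). Its level had stayed between means of 35.6 and 67.3 TPM from 0 h to 96 h, and XEN cells held 1639 and 1618 TPM. Gm15270, annotated on the opposite strand and overlapping Ccn2, rose by 3.86 ± 0.29 in a table that was counted with strand.

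Others of the 15 largest rises encode proteins of varied kinds. Spock1, a proteoglycan related to SPARC, went from 5.51, 5.71 and 7.81 TPM to 113, 125 and 90.1 TPM (3.91 ± 0.34, limma adjusted p = 3.92e-08). Frzb, a secreted WNT antagonist, went from 2.84, 2.76 and 2.01 TPM to 50.9, 62.9 and 34.02 TPM (3.79 ± 0.31, limma adjusted p = 1.93e-08). Fndc1, a fibronectin type III protein, rose by 3.35 ± 0.28 (SE; limma adjusted p = 2.57e-08). Sema6d, a transmembrane semaphorin, was the steadiest across replicates, at 4.71, 5.23 and 3.64 TPM at 96 h and 84.5, 76.2 and 66.2 TPM at 168 h (3.797 ± 0.16, limma adjusted p = 7.91e-12), and reached the XEN level of 72.5 and 70.7 TPM. Clu, clusterin, an extracellular chaperone, went from 23.9, 25.03 and 9.79 TPM to 154, 201 and 373 TPM (3.57 ± 0.35, limma adjusted p = 2.3e-07). Ugt2b34, a UDP-glucuronosyltransferase and one of several similar genes, rose by 3.97 ± 0.32 (SE; limma adjusted p = 1.93e-08), and Rap1gap, which switches off the GTPase RAP1, by 3.56 ± 0.34 (SE; limma adjusted p = 1.22e-07). Enpep, aminopeptidase A, went from 0.954, 1.12 and 0.842 TPM to 24.6, 23.9 and 17.9 TPM (3.54 ± 0.25, limma adjusted p = 5.02e-09), an order of magnitude under XEN cells, which held 237 and 240.2 TPM. Myl3, a myosin light chain, rose by 3.42 ± 0.33 (SE; limma adjusted p = 1.45e-07), and Trpc5os, an antisense gene, by 3.35 ± 0.25. Egln3 and Cyp26a1 completed the 15 and are described with their pathways.

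Among the 10 largest gains of mean TPM, Tinagl1, a secreted matrix protein of basement membranes that was on no list, went from 123, 134 and 92.1 TPM to 877, 1163 and 648 TPM (2.91 ± 0.23, limma adjusted p = 1.72e-08). Lgmn, the lysosomal protease legumain, gained 799 TPM and rose by 1.07 ± 0.197 (SE; limma adjusted p = 0.00021), a call lost after median-of-ratios rescaling (0.96), without 168 h replicate 1 (0.97) or without 168 h replicate 2 (0.96). A further 12 genes were new at 168 h, with means under 1 TPM at every earlier time and of at least 5 TPM at 168 h. The highest was Krt23, a type I keratin, at 0.66, 0.415 and 0.264 TPM at 96 h, 14.6, 13.2 and 11.5 TPM at 168 h and 14.7 and 17.8 TPM in XEN cells (3.29 ± 0.16, limma adjusted p = 3.58e-11). Wfdc1, a secreted protease inhibitor, reached 9.83, 13.7 and 9.37 TPM from 0.0507, 0.395 and 0.223 TPM, and XEN cells held 80.2 and 82.8 TPM. Spon2, a matrix protein, reached 6.604, 7.68 and 7.21 TPM, and Art3, an ADP-ribosyltransferase-like protein, 3.897, 11.7 and 10.6 TPM. Gfra1, the GDNF co-receptor, reached 4.25, 4.58 and 12.8 TPM but was at 0.162 and 0.132 TPM in XEN cells. Prss12, a secreted protease, Slco2b1, an organic anion transporter, Slc6a2, the noradrenaline transporter, and Igfbp5, a binding protein of insulin-like growth factors, had 168 h means of 5.83, 5.81, 5.54 and 5.36 TPM.

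The transcription factors that define PrE were already established at 96 h. Of 10 tested, 0 rose and 2 fell in the limma fit, and 6 were higher and 3 lower at an unadjusted p under 0.05. Gata4 differed by 0.31 ± 0.12 (limma adjusted p = 0.0404), Gata6 by 0.52 ± 0.09 (limma adjusted p = 7.34e-05), Sox17 by 0.44 ± 0.18 (limma adjusted p = 0.0541), Sox7 by 0.57 ± 0.199 (limma adjusted p = 0.0236) and Foxa2 by 0.89 ± 0.24 (limma adjusted p = 0.00508), each under the fold minimum. Foxq1, a forkhead factor, fell from 87.7, 97.02 and 98.9 TPM to 26.3, 25.9 and 29.2 TPM (-1.77 ± 0.14, limma adjusted p = 1.05e-08), close to the XEN values of 29.5 and 28.7 TPM. Hnf4a, which drives the visceral endoderm programme, fell by 1.02 ± 0.29 (limma adjusted p = 0.00679), a call lost without 168 h replicate 3 (-0.81) or without 96 h replicate 1 (-0.96). Cited1, a transcriptional co-activator, was at 103, 114 and 75.98 TPM at 96 h and 393, 366 and 60.6 TPM at 168 h. Replicate 3 of 168 h lay below the 96 h values, the 3 libraries together were not called (1.09 ± 0.48, limma adjusted p = 0.0679), and without it Cited1 was called at 1.96 (adjusted p = 1.42e-05).

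Visceral endoderm genes split by library. Of 18 tested, 6 rose and 2 fell, with a median of 0.03 that was -0.07 after rescaling. The median was -0.198 without 168 h replicate 1, -0.14 without replicate 2 and 0.25 without replicate 3. The 6 that rose encode plasma proteins. Ttr, transthyretin, was at 1.38, 1.92 and 1.13 TPM at 96 h and 52.4, 44.1 and 2.31 TPM at 168 h, and Rbp4, retinol-binding protein, at 0.629, 0.334 and 0.558 TPM at 96 h and 30.2, 38.8 and 1.29 TPM at 168 h. Replicates 1 and 2 of 168 h were high in both, and replicate 3 stood near the 96 h values. The fitted differences were 3.02 ± 0.63 (limma adjusted p = 0.000685) for Ttr and 3.24 ± 0.65 (limma adjusted p = 0.000537) for Rbp4, and without that library 4.32 and 4.55. The same 2 libraries alone carried Afp (4.48, 2.91 and 0.182 TPM at 168 h), Apob (5.78, 4.04 and 0.0608 TPM), Apoa1 (4.93, 3.78 and 0.101 TPM) and Apoa4 (4.39, 3.097 and 0.172 TPM), all under 1 TPM at 96 h. None of the 6 calls held with only the 6 compared libraries in the fit, where adjusted p ran from 0.0534 to 0.0784. Apoa1 was also lost without 168 h replicate 1 (1.06, adjusted p = 0.0512).

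Of the apical uptake genes of visceral endoderm, 1 was called. Amn, the membrane anchor of cubilin, fell from 299.6, 315 and 363 TPM to 166, 161 and 78.01 TPM (-1.34 ± 0.23, limma adjusted p = 0.000127), a call lost without 168 h replicate 3 (-0.98). Cubn, cubilin, stood at 527, 508 and 633 TPM at 96 h and 387, 359 and 194 TPM at 168 h (-0.88 ± 0.27, limma adjusted p = 0.0115), Lrp2, megalin, at 400.2, 370.3 and 417 TPM at 96 h and 266, 268 and 316 TPM at 168 h (-0.48 ± 0.31, limma adjusted p = 0.202), and Dab2, their adaptor, differed by -0.74 ± 0.23 (limma adjusted p = 0.0122), all under the fold minimum. Folr1, the folate receptor, which was on no list but among the 10 largest losses, fell from 474, 495 and 578 TPM to 166, 128 and 71.4 TPM (-2.15 ± 0.26, limma adjusted p = 2.04e-06). XEN cells held 0.556 and 0.263 TPM of Amn and 12.7 and 13.7 TPM of Folr1. Cdh1, E-cadherin, fell from 40.8, 45.1 and 46.1 TPM to 15.2, 16.5 and 11.9 TPM (-1.55 ± 0.13, limma adjusted p = 2.23e-08). Vldlr, a lipoprotein receptor, and Igf2r, the mannose 6-phosphate receptor, were the 2 of 13 endocytic receptor genes that rose, by 2.59 ± 0.43 (SE; limma adjusted p = 7.72e-05) and 1.198 ± 0.17 (SE; limma adjusted p = 1.1e-05).

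Of 7 genes of the anterior visceral endoderm, a signalling centre of the embryo, 3 fell and 1 rose. Hesx1 fell from 14.9, 17.1 and 16.5 TPM to 2.34, 2.12 and 1.06 TPM (-2.62 ± 0.19, limma adjusted p = 5.62e-09). Dkk1, a WNT antagonist, fell from 63.8, 58.98 and 58.1 TPM to 20.3, 23.5 and 19.9 TPM (-1.47 ± 0.23, limma adjusted p = 3.47e-05), and Hhex from 25.4, 25.9 and 26.96 TPM to 9.91, 9.46 and 8.74 TPM (-1.38 ± 0.22, limma adjusted p = 5.74e-05). Sfrp1, another secreted WNT antagonist, rose from 1.57, 1.51 and 1.41 TPM to 7.24, 9.77 and 7.43 TPM (1.86 ± 0.17, limma adjusted p = 5.61e-08), and had been at a mean of 16.3 TPM at 0 h.

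**Figure D2:**
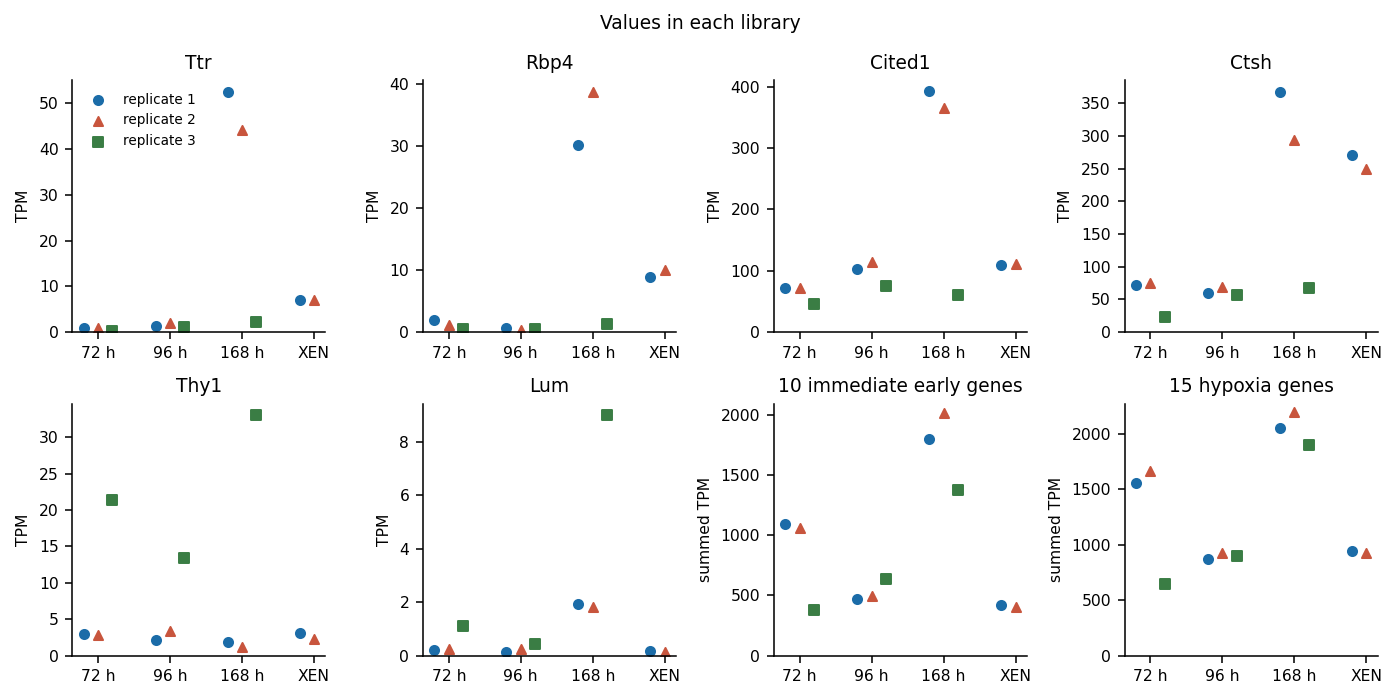
TPM of Ttr, Rbp4, Cited1, Ctsh, Thy1 and Lum, and summed TPM of 10 immediate early and 15 hypoxia response genes, in each library at 72 h, 96 h and 168 h and in XEN cells; the marker shape gives the replicate number, which does not pair libraries between times. Replicate 3 of 168 h was at 2.31 TPM of Ttr against 52.4 and 44.1 TPM in the other two, and at 33.03 TPM of Thy1 against 1.88 and 1.198 TPM.

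As a summed list, pluripotency genes were far from gone at 96 h, and most of that sum was lost in the last interval. The list summed to 5877, 5695 and 6549 TPM at 96 h, to 2285, 2268 and 3081 TPM at 168 h and to 301 and 304 TPM in XEN cells. Dppa5a, described below, made most of the sum at both times and most of its loss. Of 21 tested, 14 fell and 1 rose, with a median of -1.31, and 19 were lower in every 168 h library than in any 96 h library, against 21.9% of all genes. Pou5f1, which encodes OCT4, stood at 429, 471 and 600.3 TPM at 96 h and 39.1, 39.1 and 112 TPM at 168 h (-3.13 ± 0.25, limma adjusted p = 2.1e-08). Replicate 3 of 168 h kept the most, and without it the difference was -3.63. Utf1, a chromatin factor of ES cells, fell from 93.4, 91.9 and 97.8 TPM to 8.91, 10.98 and 11.8 TPM (-3.05 ± 0.197, limma adjusted p = 1.18e-09). Tdh, threonine dehydrogenase, on which mouse ES cell metabolism leans, fell from 111, 117 and 105 TPM to 21.3, 16.1 and 8.75 TPM (-2.85 ± 0.26, limma adjusted p = 6.57e-08).

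Dppa5a had the largest loss of mean TPM. It went from 4525, 4286 and 4985 TPM to 1741, 1706 and 2427 TPM (-1.25 ± 0.16, limma adjusted p = 6.21e-06) and so remained an abundant message at 168 h, whereas XEN cells held 1.18 and 0.172 TPM. Nanog and Sox2, low by 96 h, fell further, Nanog from 6.56, 6.96 and 6.44 TPM to 1.48, 1.73 and 1.98 TPM (-1.49 ± 0.22, limma adjusted p = 1.82e-05) and Sox2 from 8.42, 10.1 and 9.25 TPM to 3.103, 3.12 and 3.31 TPM (-1.29 ± 0.199, limma adjusted p = 3.56e-05). Esrrb, Dppa2, Dppa3, Dppa4, Tdgf1, Gdf3 and Tbx3 fell by between 1.31 and 1.89 on the log2 scale. Nr0b1 fell by 1.12 ± 0.24 (limma adjusted p = 0.000769), a call lost without 168 h replicate 1 (-0.98). Zfp42, also known as Rex1, fell short of the minimum, at -0.65 ± 0.09 (limma adjusted p = 7.87e-06), and still stood at 31.1, 32.1 and 33.3 TPM.

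Klf4 was the exception. It stood at 60.4, 62.1 and 72.97 TPM at 96 h and 130.3, 134 and 136 TPM at 168 h (1.03 ± 0.18, limma adjusted p = 0.000121), having been at a mean of 75.6 TPM before Dox and at 88.4 TPM in XEN cells. Its call lay on the fold minimum and was lost after median-of-ratios rescaling (0.92), without 96 h replicate 1 (0.97) or without 96 h replicate 2 (0.99).

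Of 6 formative epiblast genes tested, 3 fell. Dnmt3b, a de novo DNA methyltransferase, went from 216, 206 and 228 TPM to 49.2, 49.4 and 43.7 TPM (-2.17 ± 0.203, limma adjusted p = 1.05e-07), and Dnmt3a fell by 1.26 ± 0.16 (limma adjusted p = 2.87e-06). They were the 2 of 9 DNA methylation genes that were called. Dnmt1, the maintenance enzyme, differed by 0.21 ± 0.07 (limma adjusted p = 0.0143), and Dnmt3l, their catalytically inactive partner, held 393, 399 and 489.7 TPM at 168 h against 0.95 and 1.36 TPM in XEN cells. Etv4, a target of FGF signalling, fell by 2.07 ± 0.16 (limma adjusted p = 8.92e-09), and Sox4 rose by 1.73 ± 0.16 (limma adjusted p = 1.25e-07).

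The largest fall was that of Tcl1, a co-activator of AKT, from 17.3, 19.7 and 30.2 TPM to 0.763, 0.447 and 1.26 TPM (-3.67 ± 0.17, limma adjusted p = 1.83e-11). Foxh1, the partner of SMADs in NODAL signalling, fell from 10.04, 13.1 and 16.7 TPM to 0.875, 0.954 and 1.61 TPM (-2.72 ± 0.16, limma adjusted p = 3.08e-10). Dok2, a docking protein of tyrosine kinases, fell by 2.99 ± 0.37 (limma adjusted p = 3.77e-06). It had been higher at 96 h (mean 157 TPM) than at 0 h (mean 11.3 TPM), so its expression was transient. Laptm5, a lysosomal membrane protein, Gng2 and Gng13, G protein gamma subunits, Pdlim4, a cytoskeletal adaptor, and Calcoco2, an autophagy receptor, fell by between 2.57 and 2.89. Exosc6, a subunit of the RNA exosome, ranged from 0.629 to 11.1 TPM at 168 h, and its -2.53 ± 0.65 (limma adjusted p = 0.00393) had the widest spread of the falls named. Shisal2b was also among the 15 largest falls. A set of 10 genes with at least 5 TPM at 96 h had a mean under 1 TPM at 168 h, namely Tcl1, Calcoco2, Gng13, Shisal2b, Lrrn4, Fam25c, Urah, Tmem125, Slco4c1 and Pycard.

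**Figure D3:**
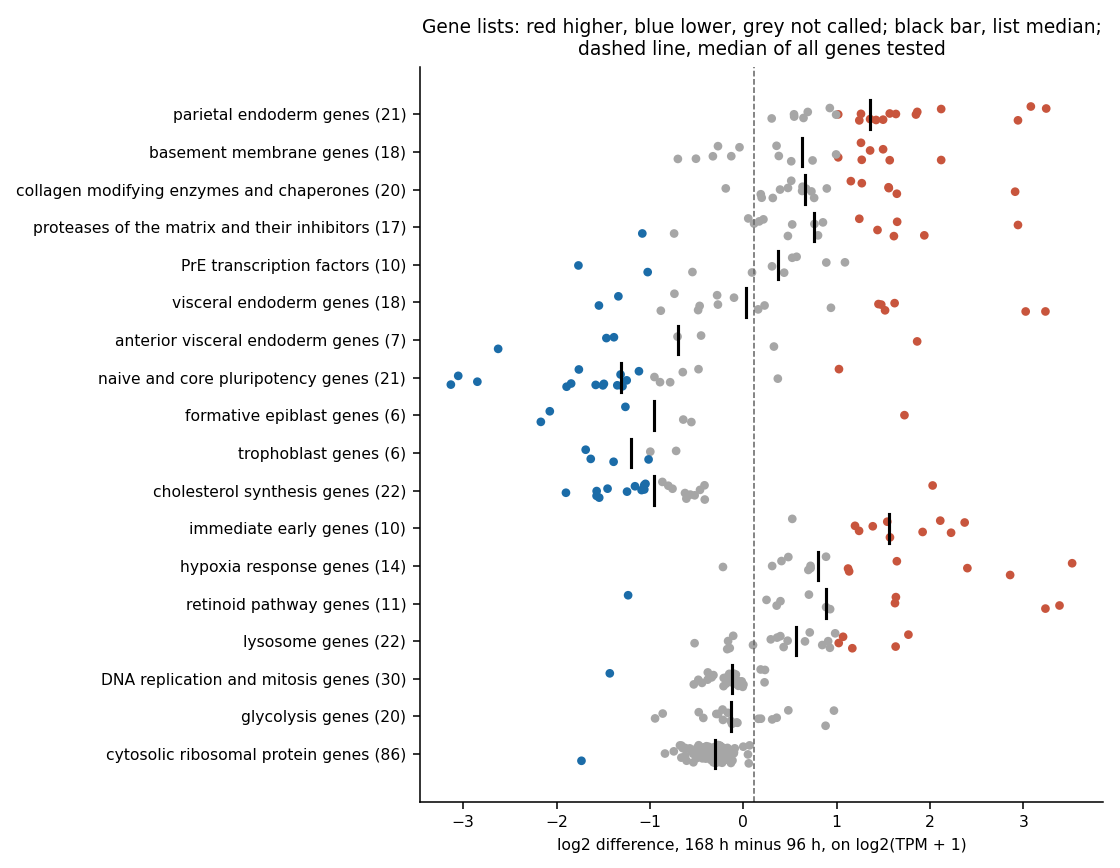
Log2 difference between 168 h and 96 h of each tested gene in the gene lists, with the number tested in brackets; red is higher, blue lower and grey not called, the black bar is the list median and the dashed line the median of all genes (0.12). The parietal endoderm list lies wholly to the right of 0 (median 1.36), and the pluripotency (median -1.31) and cholesterol synthesis (median -0.96) lists lie mostly to the left.

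Genes of cholesterol synthesis were lower at 168 h along the whole pathway. Cells make cholesterol from acetyl-CoA through mevalonate and squalene, and most enzymes of the route are targets of SREBP2, which INSIG1 holds in the endoplasmic reticulum when sterols are plentiful. Of 22 genes tested, 11 fell and 1 rose, with a median of -0.96. Of the 22, 21 were lower in every 168 h library than in any 96 h library, against 21.9% of all genes. Sqle, squalene epoxidase, fell most, from 44.96, 46.1 and 50.96 TPM to 11.7, 13.8 and 10.5 TPM (-1.899 ± 0.09, limma adjusted p = 1.83e-11). Fdps, farnesyl diphosphate synthase, went from 119, 123 and 131 TPM to 44.5, 46.3 and 34.1 TPM (-1.57 ± 0.14, limma adjusted p = 4.45e-08), and Mvd, mevalonate diphosphate decarboxylase, from 18.7, 20.96 and 21.2 TPM to 6.003, 6.65 and 5.85 TPM (-1.57 ± 0.098, limma adjusted p = 8.48e-10). Falls occurred from the mevalonate steps (Mvk, -1.24 ± 0.104, and Idi1, -1.54 ± 0.099) to the sterol steps (Cyp51, -1.45 ± 0.11, and Msmo1, -1.16 ± 0.14).

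Srebf2, which encodes SREBP2 itself, fell from 111, 115 and 139.9 TPM to 53.3, 62.96 and 53.9 TPM (-1.09 ± 0.12, limma adjusted p = 5.02e-07), a call lost without 96 h replicate 3 (-0.99). Calls near the minimum also depended on single libraries. Lss was lost without 168 h replicate 3 (-0.98) or without 96 h replicate 1 (-0.98), Fdft1 without 168 h replicate 1 (-0.901) or without 96 h replicate 3 (-0.96) and Tm7sf2 without 168 h replicate 2 (-0.98), without 168 h replicate 3 (-0.98) or without 96 h replicate 3 (-0.92). Without 168 h replicate 3, 9 of the 22 were lower, with a median of -0.95, and without 96 h replicate 3, 8 were. With replicates 3 of both times left out, 7 were lower. The calls of Msmo1 (-0.96), Srebf2 (-0.95), Lss (-0.98) and Tm7sf2 (-0.85) were lost there. Hmgcs1, which makes the substrate of the mevalonate route, was lower by less than the minimum (-0.802 ± 0.12, limma adjusted p = 3.93e-05). XEN cells had means of 24.2 TPM of Sqle and 45.5 TPM of Fdps, beside 168 h means of 12.02 and 41.6 TPM.

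Insig1 went against the rest. It rose from 99.03, 108 and 100.3 TPM to 483, 488 and 316 TPM (2.03 ± 0.3002, limma adjusted p = 2.52e-05), with replicate 3 the lowest of the 168 h libraries, and XEN cells held 65.3 and 64.9 TPM. At 72 h it was at 155, 162 and 47.4 TPM. CCAAT, the motif bound by NF-Y, which acts with SREBPs, was present in the windows of all 16 cholesterol genes that had one (22 tested), against 41.1% of 27025 genes. The SREBP element written TCACNCCAC was in 1 of 16 (6.25%), against 1.44%. Windows of 2 enzymes that fell and of Insig1 are shown to place these letters side by side, with CCAAT or its reverse complement ATTGG in capitals.
Idi1 (chr13:8885356-8885655, plus strand): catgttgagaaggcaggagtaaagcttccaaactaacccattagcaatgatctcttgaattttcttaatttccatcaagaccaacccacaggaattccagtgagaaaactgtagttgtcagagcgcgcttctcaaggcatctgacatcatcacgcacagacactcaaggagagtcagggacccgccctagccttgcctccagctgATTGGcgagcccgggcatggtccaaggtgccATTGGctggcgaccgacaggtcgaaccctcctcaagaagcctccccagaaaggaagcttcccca
Mvd (chr8:122443373-122443672, minus strand): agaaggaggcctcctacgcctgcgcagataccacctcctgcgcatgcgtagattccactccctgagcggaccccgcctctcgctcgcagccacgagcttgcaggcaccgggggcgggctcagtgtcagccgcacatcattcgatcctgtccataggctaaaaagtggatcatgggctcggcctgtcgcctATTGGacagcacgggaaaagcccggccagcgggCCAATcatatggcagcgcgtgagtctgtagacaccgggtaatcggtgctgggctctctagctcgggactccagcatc
Insig1 (chr5:28071162-28071461, plus strand): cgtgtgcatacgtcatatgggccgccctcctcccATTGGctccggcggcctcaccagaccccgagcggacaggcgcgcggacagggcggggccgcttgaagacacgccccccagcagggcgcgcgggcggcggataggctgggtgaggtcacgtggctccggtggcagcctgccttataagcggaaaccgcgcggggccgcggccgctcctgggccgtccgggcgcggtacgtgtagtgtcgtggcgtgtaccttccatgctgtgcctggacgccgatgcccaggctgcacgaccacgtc

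The Idi1 and Mvd windows hold 2 matches each and the Insig1 window 1, so the motif was present in the gene that rose as in those that fell. A match in these windows is a description of sequence and says nothing of occupancy.

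**Figure D4:**
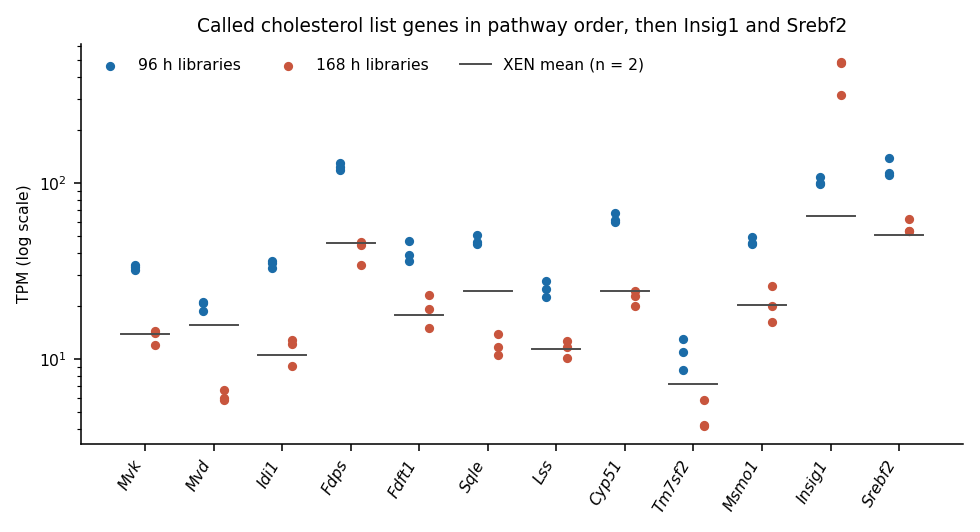
TPM (log scale) of the 12 called genes of the cholesterol list, in pathway order, in the 96 h libraries (blue) and the 168 h libraries (red), with XEN means as grey bars. In 11 genes the red points lie below the blue ones, and Insig1, at 483, 488 and 316 TPM, lies above.

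Immediate early genes, transcribed within minutes of growth factor or stress signals, were higher at 168 h in 9 of 10 members, with a median of 1.56. They summed to 471, 499 and 639 TPM at 96 h and to 1805, 2013 and 1374 TPM at 168 h, against 417 and 407 TPM in XEN cells. Fos was at 57.7, 60.1 and 92.2 TPM at 96 h and 334, 352 and 226 TPM at 168 h (2.11 ± 0.38, limma adjusted p = 0.00018), Egr1 at 49.1, 54.5 and 88.1 TPM at 96 h and 346, 357 and 203 TPM at 168 h (2.23 ± 0.59, limma adjusted p = 0.0051) and Jun at 76.3, 81.1 and 83.5 TPM at 96 h and 319, 366 and 247 TPM at 168 h (1.92 ± 0.36, limma adjusted p = 0.000267). Replicate 3 was the highest of the 96 h libraries and the lowest of the 168 h libraries in Fos and Egr1. Ier3 rose by 2.37 ± 0.29 (SE; limma adjusted p = 2.22e-06), and Fosb, Ier2, Dusp1 and Atf3 by between 1.197 and 1.57. Egr2 rose by 1.54 ± 0.57 (limma adjusted p = 0.0336), a call lost with no filter on low values (1.54, adjusted p = 0.0816), without 168 h replicate 1 (1.37, adjusted p = 0.0956), without 168 h replicate 2 (1.37, adjusted p = 0.102), without 96 h replicate 1 (1.44, adjusted p = 0.0879) or without 96 h replicate 2 (1.45, adjusted p = 0.0859). Junb alone was not called (0.53 ± 0.22, limma adjusted p = 0.0522). The change was not a steady trend, since the sums at 72 h were 1093, 1061 and 379 TPM, higher than 96 h in 2 libraries and lower in the third. How long cells were handled before lysis is not given per library, and its part in these values was not tested.

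Of 14 hypoxia response genes tested, 6 rose and 0 fell, with a median of 0.804. The list summed to 873, 927 and 894 TPM at 96 h, to 2056, 2196 and 1898 TPM at 168 h and to 941 and 926 TPM in XEN cells. Its sums at 72 h were 1556, 1664 and 642 TPM, with replicate 3 again the low one. Most of the gain of the sum after 96 h was that of P4ha1, which is also in the collagen enzyme list. Egln3, an oxygen-sensing prolyl hydroxylase induced by HIF, went from 6.99, 8.02 and 6.19 TPM to 96.5, 119.96 and 65.7 TPM (3.52 ± 0.53, limma adjusted p = 3.06e-05). Adm, adrenomedullin, went from 0.67, 1.25 and 1.67 TPM to 17.7, 24.6 and 6.97 TPM (2.86 ± 0.34, limma adjusted p = 1.8e-06), and Ndrg1 from 5.17, 6.402 and 12.2 TPM to 52.98, 82.7 and 18.6 TPM (2.4004 ± 0.69, limma adjusted p = 0.00866). Egln1 and Mxi1 rose by 1.12 ± 0.34 and 1.13 ± 0.13, and P4ha1 was given with the collagen enzymes. Vegfa (0.89 ± 0.16, limma adjusted p = 0.000147) and Bnip3 (0.41 ± 0.61, limma adjusted p = 0.6) were not called. Of the glycolysis genes, which HIF also activates, limma called 0 of 20 in either direction, with a median of -0.13, although 3 were higher and 4 lower at an unadjusted p under 0.05. Without 168 h replicate 1 or 96 h replicate 2, 1 glycolysis gene rose, and without 168 h replicate 3 or 96 h replicate 1, 1 fell. Cell density and oxygen were not recorded per library, and their part was not tested.

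ACGTG, the core of the element that HIF binds, was in the windows of 10 of 13 hypoxia genes (76.9%), against 21.8% of 27025 genes, expressed here or not. The windows of a collagen enzyme and of the oxygen sensor that rose most are shown, with ACGTG or its reverse complement CACGT in capitals.
P4ha1 (chr10:59323046-59323345, plus strand): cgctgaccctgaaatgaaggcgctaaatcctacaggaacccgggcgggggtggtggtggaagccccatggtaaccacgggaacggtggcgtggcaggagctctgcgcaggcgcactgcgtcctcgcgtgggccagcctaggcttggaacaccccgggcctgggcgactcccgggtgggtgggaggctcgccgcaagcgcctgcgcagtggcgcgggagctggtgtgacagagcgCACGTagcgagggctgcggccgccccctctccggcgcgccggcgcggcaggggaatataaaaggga
Egln3 (chr12:54203825-54204124, minus strand): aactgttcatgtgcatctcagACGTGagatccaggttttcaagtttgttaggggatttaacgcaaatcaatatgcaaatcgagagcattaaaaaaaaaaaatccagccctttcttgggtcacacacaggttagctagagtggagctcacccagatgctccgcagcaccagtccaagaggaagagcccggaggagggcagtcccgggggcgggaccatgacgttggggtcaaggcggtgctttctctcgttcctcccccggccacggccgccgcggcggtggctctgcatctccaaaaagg

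Of 11 genes of retinoid uptake and response tested, 4 rose and 1 fell. Cyp26a1, which degrades retinoic acid and is induced by it, went from 19.2, 18.7 and 14.8 TPM to 246, 218 and 132 TPM (3.39 ± 0.47, limma adjusted p = 1.17e-05). Rarb, a retinoic acid receptor gene that is a direct target of retinoic acid, went from 0.457, 0.567 and 0.588 TPM to 4.73, 3.48 and 3.14 TPM (1.63 ± 0.15, limma adjusted p = 8.66e-08). The other 2 were Stra6 and Rbp4, given above. Cyp26b1, a related hydroxylase, fell by 1.23 ± 0.19 (limma adjusted p = 3.3e-05). Rara and Rarg differed by 0.25 ± 0.14 (limma adjusted p = 0.143) and 0.89 ± 0.19 (limma adjusted p = 0.000893).

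In the TGF-beta and BMP pathway, 6 of 20 genes rose and 0 fell, and 1 fell without 168 h replicate 3 or 96 h replicate 3. The list median of 0.17 was near the 0.12 of all genes. At an unadjusted p under 0.05, 9 were higher and 5 lower. Beside Fst, Nog, noggin, went from 22.9, 22.8 and 11.1 TPM to 129, 115 and 107 TPM (2.63 ± 0.22, limma adjusted p = 2.42e-08). Among receptors, Tgfbr2 rose by 1.87 ± 0.22 (SE; limma adjusted p = 1.99e-06), and Tgfbr1 differed by 0.74 ± 0.11 (limma adjusted p = 2.33e-05). The ligands Bmp2, Bmp4 and Bmp6 differed by 0.52 ± 0.19 (limma adjusted p = 0.0281), -0.0999 ± 0.598 (limma adjusted p = 0.903) and -0.43 ± 0.11 (limma adjusted p = 0.00312). The ID genes, transcribed in response to BMP, did not move as one. Id2 rose by 1.42 ± 0.23 (SE; limma adjusted p = 7.18e-05), and Id4 by 1.502 ± 0.29 (limma adjusted p = 0.000308), a call lost without 168 h replicate 3 (0.98). Id1 and Id3 pointed down, at -0.81 ± 0.302 (limma adjusted p = 0.0331) and -0.84 ± 0.18 (limma adjusted p = 0.00093).

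Among 16 cadherins, tight junction genes and factors of the epithelial to mesenchymal transition, 3 fell and 2 rose. Beside Cdh1, Cldn4, a claudin, fell from 11.4, 12.6 and 18.6 TPM to 2.36, 3.46 and 3.36 TPM (-1.88 ± 0.24, limma adjusted p = 4.47e-06). Cldn7 fell by 1.06 ± 0.298 (limma adjusted p = 0.00655), a call lost without 168 h replicate 3 (-0.702). The 2 that rose were Snai1 and Vim, given above. Cdh2, N-cadherin, differed by -0.14 ± 0.22 (limma adjusted p = 0.611), and Epcam by -0.07 ± 0.11 (limma adjusted p = 0.632), and neither was called. Zeb1 differed by 0.92 ± 0.196 (limma adjusted p = 0.000768), just under the minimum. Of 16 integrin and adhesion genes, 3 rose and 0 fell. Itga6, the laminin-binding integrin chain, went from 10.3, 12.3 and 13.1 TPM to 59.3, 50.99 and 36.2 TPM (1.93 ± 0.16, limma adjusted p = 2.14e-08), after a mean of 87.4 TPM at 0 h. Itgav, a chain of vitronectin receptors, went from 32.4, 28.2 and 26.5 TPM to 97.8, 101 and 112 TPM (1.801 ± 0.13, limma adjusted p = 3.43e-09). Itgb5, its partner, rose by 1.01 ± 0.096 (limma adjusted p = 1.28e-07), a call lost after median-of-ratios rescaling (0.899), without 168 h replicate 2 (0.98) or without 96 h replicate 3 (0.94).

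Of 17 proteases of the matrix and their inhibitors, 6 rose and 1 fell, and 2 fell without 168 h replicate 3. Adamts9, a secreted metalloprotease, went from 117, 109.8 and 93.2 TPM to 428, 351 and 459 TPM (1.94 ± 0.102, limma adjusted p = 9.75e-11), and Adamts1 rose by 1.44 ± 0.21 (limma adjusted p = 1.78e-05). Mmp2, a type IV collagenase, went from 3.704, 3.0996 and 1.86 TPM to 9.65, 11.1 and 12.2 TPM (1.65 ± 0.17, limma adjusted p = 4.04e-07), and its inhibitor Timp2 from 82.03, 83.8 and 61.9 TPM to 212, 231 and 257 TPM (1.61 ± 0.31, limma adjusted p = 0.000304). Htra1, a secreted serine protease, fell from 569, 583 and 640.5 TPM to 259, 266 and 325 TPM (-1.08 ± 0.17, limma adjusted p = 3.39e-05). Proteases and inhibitors thus rose side by side.

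Lysosome genes rose in 5 of 22 cases, with 0 falls and a median of 0.57. Psap, prosaposin, went from 158, 162 and 156 TPM to 493, 546 and 594 TPM (1.77 ± 0.18, limma adjusted p = 2.93e-07), and Lipa, the acid lipase that frees cholesterol from its esters, from 16.3, 15.6 and 15.04 TPM to 40.5, 40.2 and 29.6 TPM (1.17 ± 0.18, limma adjusted p = 3.12e-05). Npc1, which exports cholesterol from lysosomes, rose by 1.02 ± 0.17 (limma adjusted p = 0.000104), a call lost after median-of-ratios rescaling (0.91), without 168 h replicate 2 (0.92) or without 96 h replicate 1 (0.95). Ctsh, a cathepsin, stood at 60.3, 68.4 and 57.5 TPM at 96 h and 368, 293 and 67.2 TPM at 168 h, with replicate 3 of 168 h near the 96 h values, and its 1.63 ± 0.48 (limma adjusted p = 0.00894) was lost with only the 96 h and 168 h libraries (1.63, adjusted p = 0.0808) or without 168 h replicate 1 (1.17, adjusted p = 0.057). Lgmn, given above, was the fifth. The count of rises was 3 without 168 h replicate 1, 3 without replicate 2 and 8 without replicate 3. Ctsl, the most abundant cathepsin, differed by -0.14 ± 0.16 (limma adjusted p = 0.468).

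The other large losses of mean TPM were of genes of varied kinds. Npm1, nucleophosmin, which acts in ribosome assembly, fell from 2103, 2116 and 1947 TPM to 1055, 909 and 931 TPM (-1.09 ± 0.09, limma adjusted p = 1.45e-08) and Ncl, nucleolin, from 960.3, 915 and 791 TPM to 431, 367 and 359 TPM (-1.202 ± 0.15, limma adjusted p = 4.84e-06). Set, a histone chaperone, went from 1299.5, 1311 and 1233 TPM to 529, 439.9 and 473 TPM (-1.42 ± 0.15, limma adjusted p = 6.06e-07). Odc1, which starts polyamine synthesis, fell by 1.35 ± 0.19 (limma adjusted p = 1.47e-05), and Slc25a5, the mitochondrial ADP/ATP carrier, by 1.45 ± 0.17 (limma adjusted p = 1.89e-06). Hspb1, a small heat shock protein, fell from 1149, 1201 and 1477 TPM to 317, 341 and 351 TPM (-1.91 ± 0.18, limma adjusted p = 8.7e-08), and Hspd1, the mitochondrial chaperone HSP60, by 1.04 ± 0.18 (limma adjusted p = 0.000121), a call lost without 168 h replicate 3 (-0.99) or without 96 h replicate 1 (-0.99). Several of these genes have processed copies elsewhere in the genome that could take part of their reads. XEN cells held more of Npm1 (1935 TPM), Ncl (685 TPM), Odc1 (522 TPM) and Hspd1 (682 TPM) than the 168 h libraries did.

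Ribosomal protein genes were lower by less than the minimum. The 89 genes of the list summed to 236879.9, 227625 and 229144 TPM at 96 h and to 185672, 195648 and 181645 TPM at 168 h, and XEN cells held 213264 and 214643 TPM. Of 86 tested, 1 fell (2 without 168 h replicate 3) and 0 rose, with a median of -0.31 as deposited and -0.42 after rescaling. At an unadjusted p under 0.05, 75 were lower and 0 higher. Of the 86, 69 lay lower in every 168 h library than in any 96 h library, against 21.9% of all genes. The 1 called gene was Rpl10l, a testis-type retrocopy (-1.73 ± 0.17, limma adjusted p = 2.19e-07). Respiratory chain genes had a median of -0.08 as deposited and -0.18 after rescaling, against 0.12 and 0.02 over all genes. At an unadjusted p under 0.05, 29 of 80 were lower and 14 higher. Of these 80, 37 lay lower in every 168 h library than in any 96 h library, against 21.9% of all genes. Another 16 lay higher, against 36.6%. Among 80 tested, 1 rose, Cox6b2, a testis-type subunit (1.01 ± 0.201, limma adjusted p = 0.00045), a call lost after median-of-ratios rescaling (0.898), without 168 h replicate 3 (0.78), without 96 h replicate 1 (0.91) or without 96 h replicate 2 (0.93). Without 168 h replicate 1 or 2, 2 of the 80 rose and 1 fell, and without 96 h replicate 1, 1 fell.

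Of 30 genes of DNA replication and mitosis, 1 fell and 0 rose, with a median of -0.12, against 0.12 over all genes. At an unadjusted p under 0.05, 13 were lower and 2 higher. Of the 30, 14 lay lower in every 168 h library than in any 96 h library, against 21.9% of all genes. The called gene was Ccne1, cyclin E1, which went from 114, 115 and 112 TPM to 45.03, 38.5 and 41.4 TPM (-1.43 ± 0.19, limma adjusted p = 5.45e-06) and met the XEN level of 40.7 and 43.2 TPM. Mki67 stood at 98.8, 96.4 and 107 TPM at 96 h and 93.7, 92.5 and 96.97 TPM at 168 h (-0.09 ± 0.07, limma adjusted p = 0.299). Of 16 CDK inhibitors and p53 targets, 2 rose and 1 fell, with a median of 0.58. At an unadjusted p under 0.05, 13 were higher and 1 lower. Of the 16, 14 lay higher in every 168 h library than in any 96 h library, against 36.6% of all genes. Cdkn1a, the inhibitor p21, went from 125, 138 and 125 TPM to 289, 303 and 432 TPM (1.37 ± 0.18, limma adjusted p = 8.09e-06), with replicate 3 of 168 h the highest, and Fas, a death receptor, rose by 1.52 ± 0.24 (limma adjusted p = 4.43e-05). Mdm2 (0.72 ± 0.18, limma adjusted p = 0.00252) and Ccng1 (0.61 ± 0.203, limma adjusted p = 0.0194) were higher by less than the minimum. Cdkn1c, the inhibitor p57, which is imprinted, fell by 1.42 ± 0.25 (limma adjusted p = 0.000152).

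Imprinted genes moved in both directions, with 5 of 22 higher and 3 lower. Sgce, a sarcoglycan, went from 3.63, 3.07 and 3.29 TPM to 21.03, 26.8 and 22.1 TPM (2.48 ± 0.204, limma adjusted p = 2.32e-08), and Plagl1, a zinc finger factor, from 1.25, 1.803 and 0.994 TPM to 8.95, 8.396 and 10.2 TPM (2.13 ± 0.44, limma adjusted p = 0.000572). H19, a noncoding RNA, rose by 1.22 ± 0.35 (limma adjusted p = 0.00749), while Igf2, its neighbour, differed by -0.15 ± 0.32 (limma adjusted p = 0.722). Dlk1 rose by 1.3002 ± 0.38 (limma adjusted p = 0.0086) on replicates 1 and 2 of 168 h, with 4.71, 9.08 and 0.74 TPM, and was lost with only the 96 h and 168 h libraries (1.3002, adjusted p = 0.107) or without 168 h replicate 2 (0.74). Phlda2 fell by 2.04 ± 0.25 (limma adjusted p = 2.67e-06) and Ascl2 by 1.69 ± 0.201 (limma adjusted p = 1.91e-06), and both act in the placenta.

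Other cell types left few signals. Trophoblast genes were low and fell further, 4 of 6 tested being called. Tfap2c fell from 6.27, 8.23 and 9.88 TPM to 1.57, 1.46 and 2.87 TPM (-1.63 ± 0.22, limma adjusted p = 8.71e-06), and Hand1 by 1.39 ± 0.25 (limma adjusted p = 0.000147). Krt7 fell by 1.01 ± 0.17 (limma adjusted p = 9.42e-05), a call lost without 168 h replicate 1 (-0.94), without 168 h replicate 2 (-0.97) or without 96 h replicate 3 (-0.85). Of 12 gastrulation mesoderm genes only 3 reached 1 TPM, and Eomes, also a factor of early endoderm, fell by 1.11 ± 0.17 (limma adjusted p = 3.63e-05). The Eomes call was lost with replicates 3 of both times left out (-0.98). Of 9 neural genes 3 were tested and limma called 0 of them, while 1 was higher and 1 lower at an unadjusted p under 0.05, and Tubb3 stood at 8.85, 7.23 and 32.5 TPM at 168 h, high in replicate 3. Of 5 germline genes tested, Rpl10l fell and Taf7l rose (1.33 ± 0.398, limma adjusted p = 0.0101), the latter call lost without 168 h replicate 2 (0.98). Tek, the angiopoietin receptor, alone of 4 endothelial and blood genes rose, from 0.751, 0.415 and 0.497 TPM to 9.64, 9.16 and 14.3 TPM (2.93 ± 0.198, limma adjusted p = 2.18e-09), and XEN cells held 33.9 and 28.9 TPM, while Pecam1 was at 0.376, 0.467 and 0.598 TPM. Of 9 interferon response genes, Oasl2 rose (1.24 ± 0.14, limma adjusted p = 9.1e-07) and Ifitm1 fell (-1.29 ± 0.29, limma adjusted p = 0.00116), a call lost without 168 h replicate 2 (-0.998). The interferon rises numbered 3 without 168 h replicate 2 and 2 without 96 h replicate 1 or 2, and the falls 2 without 168 h replicate 1 or 3. Of 7 iron and haem genes limma called 0, and 3 were higher and 3 lower at an unadjusted p under 0.05.

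Feeder fibroblasts could add messages of their own. The 18 fibroblast genes summed to 281, 266 and 169 TPM at 96 h and to 218, 218 and 423 TPM at 168 h, with replicate 3 of 168 h the highest, and to 453 and 447 TPM in XEN cells, which were also grown on feeders. Of 16 tested, 3 rose, namely Lum, lumican (0.142, 0.243 and 0.436 TPM to 1.91, 1.83 and 8.98 TPM, 1.78 ± 0.42, limma adjusted p = 0.00188), Col3a1 (1.53 ± 0.49, limma adjusted p = 0.0153) and Dcn, decorin (1.24 ± 0.48, limma adjusted p = 0.0388). Without 168 h replicate 3 only Lum was called, at 1.18, and the others were at 1.21 and 0.55. Col3a1 was also lost without 96 h replicate 3 (1.35, adjusted p = 0.0571). Dcn was also lost after median-of-ratios rescaling (1.15, adjusted p = 0.0535), with no filter on low values (1.24, adjusted p = 0.0942), with only the 96 h and 168 h libraries (1.24, adjusted p = 0.113), with a pseudocount of 0.1 (2.26, adjusted p = 0.0597), without 96 h replicate 1 (1.08, adjusted p = 0.118) or without 96 h replicate 2 (1.18, adjusted p = 0.0916). Thy1 was at 1.88, 1.198 and 33.03 TPM at 168 h, and Col1a1 and Col1a2 differed by 0.295 ± 0.31 (limma adjusted p = 0.452) and 0.64 ± 0.39 (limma adjusted p = 0.177). The part of feeder messages in the matrix rise was not tested.

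How far the late changes pointed towards XEN cells was described with the difference between XEN cells and 0 h cells, a comparison that shares no library with the one between 96 h and 168 h. Over the genes tested, XEN cells were called higher than 0 h in 2701 (20.6%) and lower in 1921 (14.6%). Of the 789 genes that rose after 96 h, 503 (63.8%) were higher and 34 (4.31%) lower in XEN cells, and 252 were not called there. Of the 370 that fell, 214 (57.8%) were lower in XEN cells and 22 (5.95%) higher. The called genes therefore moved mostly the way in which XEN cells differ from ES cells, in counts well over the background shares.

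Not every late change continued an earlier one. Among the genes that rose, 213 (27.0%) had a 96 h mean below their 0 h mean, as did 44.4% of all genes tested, with Itga6 and Sfrp1 among them. Among the genes that fell, 182 (49.2%) had a 96 h mean above their 0 h mean, near the 55.5% of all genes. The 96 h mean enters both the calls and these shares, so the shares are partly set by the selection and are given as description only. The 168 h mean was above the XEN mean in 570 (72.2%) of the genes that rose, against 62.7% of all genes. It was above the XEN mean in 67.6% of the genes that fell. The 168 h mean also served to call the genes and, with the 96 h mean, to filter them, so these shares are partly set by the selection. They do not show that the called genes as a set overshot XEN cells. Col4a1, Loxl2, Insig1 and the summed immediate early genes exceeded XEN cells at 168 h, whereas Plat, Enpep and Vim stayed below.

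**Figure D5:**
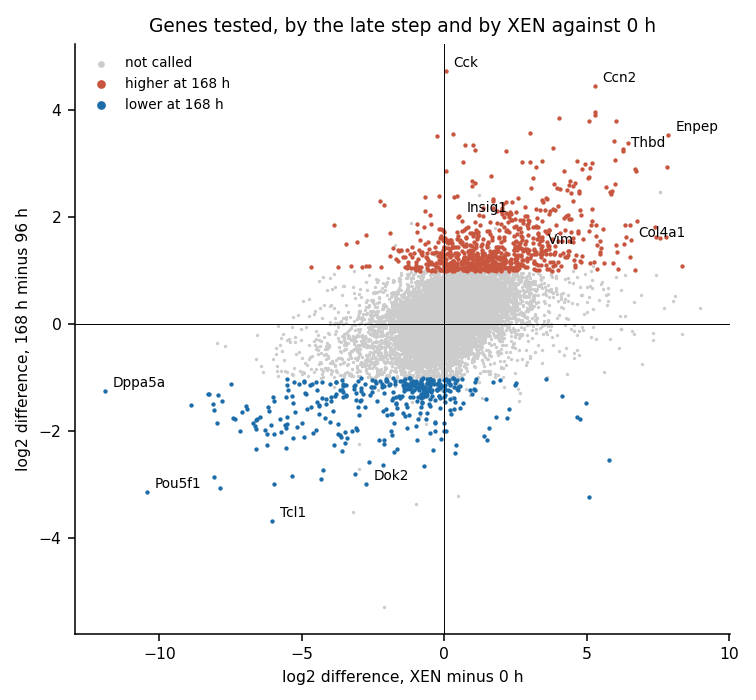
Log2 difference between 168 h and 96 h of each gene tested against its log2 difference between XEN cells and 0 h, with genes called higher at 168 h in red and lower in blue. Of the 789 red points 503 were also called higher in XEN cells and of the 370 blue points 214 were called lower there, and Cck and Insig1 lie high in the plot with XEN means of 1.72 and 65.1 TPM.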

How the data were processed

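Poly(A) RNA of KH2 cells on Dox and of XEN cells was sequenced as stranded libraries. The authors deposited one table of TPM values, made after adapter trimming with cutadapt by STAR on mm10 and by RSEM with its reverse-strand setting, and outliers by principal components are said to have been omitted. Versions and annotation are not given in the sources used here. Each library's TPM values sum to 1000000, so levels are shares and the depth is unknown. Of 44915 rows, 60 symbols stood on more than 1, and the row of highest mean was kept for each, leaving 44853 genes. Coordinates are those of GENCODE on mm10, and promoter windows are those of RefSeq for GRCm38.p6.

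Groups were taken from the labels. limma 3.58.1 in R 4.3.3 was fitted to log2(TPM + 1) of all 23 libraries of the table, with 1 coefficient per group and variances moderated with trend and robust options, over the 13130 genes whose mean reached 1 TPM at either time. Adjustment followed Benjamini and Hochberg. The study tested counts, so limma takes the place of its count test, with its thresholds. A gene was called at adjusted p under 0.05 and a log2 difference past 1. The errors given with differences are standard errors of the fit.

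Genes were named by rule. Called genes whose libraries did not overlap and whose mean reached 5 TPM gave the 15 largest rises and falls, the 10 largest gains and losses of mean TPM, and the 10 highest of those under 1 TPM at every earlier time or at 168 h. Members of 34 gene lists could also be named, and a few genes that met the rule are not reported here. The comparison, the lists and the tests were chosen with earlier results of these data known. With 3 against 3 libraries an exact permutation test of a single gene could not go below 0.1, so none was run. The fit and its summary were tested on simulated data. The siRNA libraries of the series were not used here. Alternatives were the pseudocount, the filter, rescaling, a fit of 6 libraries, a replicate block and each library left out. Leaving out replicates 3 of both times was added after the data were seen.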

Additional observations from a re-analysis of the deposited data

How the results depend on the processing

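With no fold minimum, 4014 genes were higher and 2413 lower at 168 h, in place of 789 and 370. A pseudocount of 0.1 gave 1161 higher and 625 lower. Leaving out each library in turn gave 767 to 888 higher and 375 to 420 lower, and leaving out replicates 3 of both times, an alternative chosen after the data were seen, gave 824 and 416. Median-of-ratios rescaling gave 619 and 469, the 6 compared libraries alone 766 and 363, no filter 770 and 362, a minimum of 5 TPM 649 and 281, and an adjusted p under 0.01 752 and 355. Of 177 named genes that were called, 143 kept the call in all 13 alternatives run on single genes, 34 lost it in at least 1, and 0 changed direction. The depth of the libraries, which sets the precision of genes near 1 TPM, is unknown.

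The replicate numbers are shared between times, but same-numbered libraries of 96 h and 168 h deviated together only weakly (correlations of 0.0443, 0.0165 and 0.124), so the numbers were not taken to pair them. With the replicate number as a block, 790 genes were higher and 373 lower, XEN cells were higher than 0 h in 2672 and lower in 1948, and 0 of the 177 named genes lost the call. Not every library correlated best with its own number.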
